A study of Mus musculus with 9 samples.

Results

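The genes of glucose uptake and glycolysis described here were *Slc2a1*, *Hk1*, *Hk2*, *Hk3*, *Pfkl*, *Pfkfb3*, *Pgk1*, *Pkm*, *Ldha* and *Slc16a3*, chosen by symbol from the 18349 genes listed for mouse iris RNA. All 10 were measured in each library, and all 10 were among the 15010 genes with enough counts to be tested. RNA-Seq was done on 9 libraries in 3 groups of 3, and each library pooled 3 irises. Sham *VEGFR3 fl/fl* mice, which carried floxed *VEGFR3* without Cre, received PBS on the cornea. Injured *VEGFR3 fl/fl* mice had the cornea exposed for 60 seconds to sodium hydroxide (1 M, 0.5 μl) when they were 6 weeks old, a corneal alkali injury (CAI). Injured *VEGFR3 iLECko* mice received the same injury and carried, beside the floxed alleles, a tamoxifen-inducible Cre driven by *Prox1* (*VEGFR3 fl/fl;Prox1-CreERT2*), which puts Cre in cells that express *Prox1*, such as lymphatic endothelial cells. All mice had a C57BL/6J background. Tamoxifen at 80 mg/kg was given on days 13 to 17 after injury, to the littermates without Cre as well, and irises were collected at 10 weeks of age. The irises were cut free of the ciliary body and trimmed at their outer edge before they were pooled. Since each pool mixed all cell types of the remaining tissue, a change in the number of cells of a type and a change in RNA per cell cannot be told apart here.

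Cells take up glucose through facilitative carriers of the GLUT family, and hexokinases trap it inside the cell as glucose phosphate. Phosphofructokinase commits the sugar to glycolysis under the control of the PFKFB enzymes, whose product is its strongest activator, and the later enzymes yield ATP and pyruvate. Lactate dehydrogenase can turn pyruvate into lactate, which leaves the cell through monocarboxylate carriers, and macrophages and other activated immune cells are known for a high rate of this route. In the anterior eye, GLUT1 in the pigmented epithelium is also known to carry glucose across the blood-eye barrier.

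Total counts per library were 16617187 to 16838904 in Sham, 17538981 to 18306359 in injured *VEGFR3 fl/fl* and 17561521 to 17591702 in injured *VEGFR3 iLECko* libraries. Levels are CPM, the share of a gene in the library scaled to a common total, after TMM scaling, which corrects for library composition, and levels per kilobase (CPM per kb) are used wherever genes are compared with each other. The iris markers were present. The summed level of 8 pigment cell markers was 27794 to 29755 CPM in Sham, 3413 to 5858 CPM in injured irises without Cre and 5118 to 7169 CPM in *VEGFR3 iLECko* irises, and that of 8 smooth muscle markers was 7979 to 10289, 1658 to 3397 and 2403 to 3806 CPM. The summed level of 12 macrophage markers was 416 to 426, 3341 to 3690 and 2056 to 2369 CPM in the same order. *Flt4*, the gene of VEGFR3, lay between 13.4 and 15.6 CPM in Sham, 16.8 and 23.0 CPM after injury without Cre, and 21.0 and 27.9 CPM in the libraries labelled *VEGFR3 iLECko*, so that in RNA of the mixed iris tissue it was not lower under that label (log2 fold change 0.33, adjusted p = 0.20 by edgeR). Deletion in *Prox1*-expressing cells was not measured here. By staining, the study found the growth of iris lymphatic vessels blocked in injured *VEGFR3 iLECko* mice. Replicate 1 of injured *VEGFR3 fl/fl* stood furthest from its group, and Y-linked genes were at 136 and 151 CPM in 2 libraries of that group but at 0.736 to 1.11 CPM in the third and in all 3 *VEGFR3 iLECko* libraries. In Sham replicates 1 to 3 they were at 51.1, 82.3 and 167 CPM, so the Y-linked level differed within and between groups.

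The promoters of the 5 members that changed most after injury are shown first, each at a start whose window held the letters described next. The RefSeq promoter table (GRCm38.p6) gave 14 start sites for the 10 genes, and the 250 bases before each start were searched on both strands for the letters ACGTG, the core of the site that hypoxia-inducible factors bind. A match on the opposite strand reads CACGT. Capitals mark each match, and each run is written 5′ to 3′ on the strand of the gene. The run of *Slc2a1* ends 14 bases before its start, because GENCODE M21 begins the first exon within the window, and of the 2 starts of *Pfkfb3* the one further downstream is shown.

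Slc2a1 (chr4:119108495-119108730, plus strand): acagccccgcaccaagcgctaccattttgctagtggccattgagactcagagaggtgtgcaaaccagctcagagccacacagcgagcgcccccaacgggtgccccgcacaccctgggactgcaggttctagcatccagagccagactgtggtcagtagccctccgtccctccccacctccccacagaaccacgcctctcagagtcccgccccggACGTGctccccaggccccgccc

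Hk2 (chr6:82774455-82774704, minus strand): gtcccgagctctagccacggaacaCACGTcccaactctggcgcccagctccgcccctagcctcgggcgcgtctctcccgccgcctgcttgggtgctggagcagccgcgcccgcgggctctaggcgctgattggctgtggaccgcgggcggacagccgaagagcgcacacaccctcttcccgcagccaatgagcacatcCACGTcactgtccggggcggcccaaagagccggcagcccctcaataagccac

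Hk3 (chr13:55021386-55021635, minus strand): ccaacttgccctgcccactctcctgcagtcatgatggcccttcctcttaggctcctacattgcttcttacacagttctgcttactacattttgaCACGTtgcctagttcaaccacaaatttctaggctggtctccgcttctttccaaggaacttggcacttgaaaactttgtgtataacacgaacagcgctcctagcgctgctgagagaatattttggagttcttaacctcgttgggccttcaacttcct

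Pfkfb3, downstream start (chr2:11502091-11502340, minus strand): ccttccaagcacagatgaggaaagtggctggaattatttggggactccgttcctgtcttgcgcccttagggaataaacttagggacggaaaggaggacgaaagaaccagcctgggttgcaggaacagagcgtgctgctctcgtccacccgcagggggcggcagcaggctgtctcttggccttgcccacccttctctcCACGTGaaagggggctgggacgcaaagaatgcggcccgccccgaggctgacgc

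Slc16a3 (chr11:120948817-120949066, plus strand): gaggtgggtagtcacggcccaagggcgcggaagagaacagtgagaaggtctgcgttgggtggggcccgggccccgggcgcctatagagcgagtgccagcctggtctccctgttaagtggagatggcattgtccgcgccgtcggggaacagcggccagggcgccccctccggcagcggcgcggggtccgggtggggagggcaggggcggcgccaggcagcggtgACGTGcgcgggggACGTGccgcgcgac

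Each of these 5 genes held ACGTG or its reverse at 1 or more starts. Over all members the letters were present before 9 of 14 starts, whereas 16.6% of all 32851 promoter windows of the same length held them. By gene, 8 of 10 members held them before at least 1 start, with *Hk1* and *Pfkl* as the exceptions. The share by gene over all genes is not given here. At the downstream start of *Pfkfb3* the forward and reverse letters overlapped, as CACGTG, and were counted as 1 place. *Pgk1*, *Pkm* and *Ldha*, which were not among the genes that changed most, also held the letters before at least 1 of their starts. The annotated extents of *Hk3*, *Pfkfb3* and *Slc16a3* begin upstream of the starts shown, and which start the iris used was not measured. A match describes these letters in this window and is not evidence of binding. Several of the 10 genes are known to be raised by hypoxia-inducible factors, so the choice of genes was not independent of these letters.

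The first comparison asked how the injury changed the iris, by setting injured *VEGFR3 fl/fl* against Sham *VEGFR3 fl/fl*. The main glucose carrier and several genes downstream of it moved in opposite directions. *Slc2a1* fell 3.51-fold, *Hk2*, *Hk3*, *Pfkfb3* and *Slc16a3* rose between 3.99-fold and 28.6-fold, and the remaining 5 genes moved by less than 1.5-fold. A differentially expressed gene (DEG) had an adjusted p under 0.05 by edgeR's quasi-likelihood test, adjusted over all genes tested, and a change of more than 1.5-fold. By that definition 5 of the 10 genes were DEGs, compared with 39.7% of all genes tested. Of these, 4 were higher, compared with 22.1% of all genes, and 1 was lower, compared with 17.5%. The libraries of both groups did not overlap for 9 of the 10 genes, compared with 66.3% of all genes. An adjusted p under 0.05 alone was reached by 8 of the 10, compared with 60% of all genes. Over the 10 genes the log2 fold change had a median of 0.21, and over all genes 0.010.

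**Figure D1:**
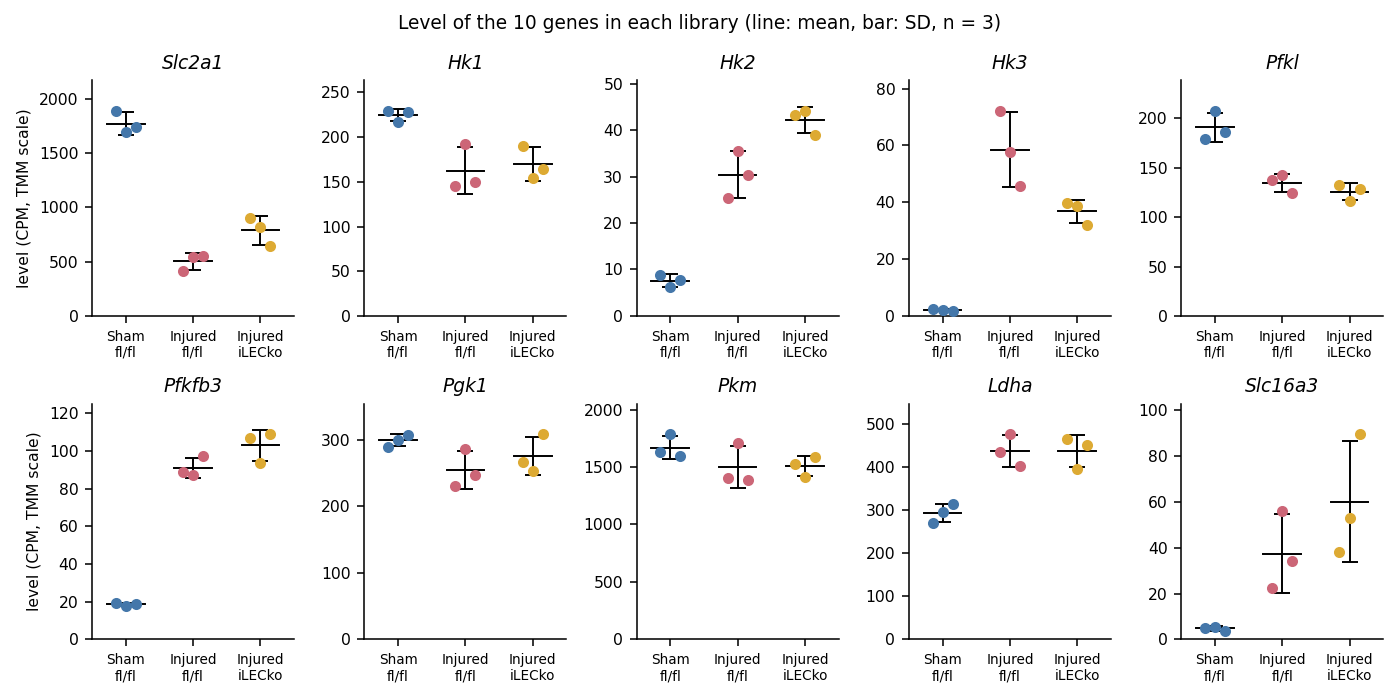
Level of each of the 10 genes in CPM (vertical axis, from 0, with its own scale in each panel) in the 3 libraries of each group, with points for libraries, lines for means and bars for SD (n = 3). *Slc2a1* falls from 1772 to 505 CPM on average after injury, whereas *Hk2*, *Hk3*, *Pfkfb3* and *Slc16a3* sit near the axis in Sham and rise in both injured groups.

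*Slc2a1* (NCBI Gene ID 20525, RefSeq position in GRCm38.p6, as for the genes that follow, chr4:119108745-119137330) encodes GLUT1, the carrier for basal glucose uptake in most cells. Its level was 1888, 1690.4 and 1739 CPM in Sham replicates 1 to 3 and 416, 544 and 556 CPM in injured *VEGFR3 fl/fl* replicates 1 to 3. Every injured library lay below every Sham library by a wide gap. The log2 fold change was -1.81 (standard error, SE, 0.16, adjusted p = 1.22e-05 by edgeR). The carrier supplied 94.3% ± 0.48 (SD, n = 3) of the summed level per kilobase of 11 *Slc2a* genes in Sham and 86.0% ± 0.88 (SD, n = 3) after injury, so it stayed the leading carrier while the sum fell from 576 ± 30.6 to 180 ± 26.0 CPM per kb (SD, n = 3). In the same comparison all 8 pigment cell markers were lower DEGs, as were 7 of 8 smooth muscle markers, against 17.5% of all genes. The part of these cells in the fall of *Slc2a1* was not tested.

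The hexokinases showed a change of makeup within a family whose summed level overlapped between the groups. *Hk1* (15275, chr10:62268855-62379920), the constitutive form, was at 229, 217 and 228 CPM in Sham and at 145, 193 and 150.0 CPM after injury. These groups did not overlap, and the log2 fold change was -0.47 (SE 0.12, adjusted p = 0.00844), a change under 1.5-fold. *Hk2* (15277, chr6:82725025-82774454), the inducible form of muscle, fat and proliferating cells, was at 8.92, 6.27 and 7.66 CPM in Sham and at 25.4, 35.5 and 30.3 CPM after injury. Its injured libraries were all higher than the Sham libraries, with a log2 fold change of 2.0 (SE 0.16, adjusted p = 7.10e-06).

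*Hk3* (212032, chr13:55005985-55021475), the hexokinase of myeloid cells, changed most of the 10 genes. It had 41, 36 and 32 counts in the Sham libraries, or 2.27, 2.03 and 1.80 CPM. In injured *VEGFR3 fl/fl* replicates 1 to 3 it was at 72.1, 57.8 and 45.7 CPM. No library of either group came near the other group. The log2 fold change was 4.84 (SE 0.20, adjusted p = 1.99e-07), and its size lay above that of 98.0% of the genes tested. Of 12 macrophage markers, 11 were DEGs with higher levels in this comparison, against 22.1% of all genes, with *Cd68* rising from 41.1 ± 4.83 to 669 ± 106 CPM (SD, n = 3). Of 8 tested neutrophil markers, 6 were higher DEGs as well. The summed level of the neutrophil markers was 4.49 to 6.08 CPM in Sham and 182 to 558 CPM after injury. The neutrophil granule genes *Mpo* and *Elane* had no more than 3 counts in any library. The part of these cells in the rise of *Hk3* was not tested.

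Per kilobase, *Hk1* made up 93.0% ± 1.34 of the summed level of *Hk1*, *Hk2*, *Hk3* and *Hkdc1* in Sham and 61.0% ± 5.43 after injury (SD, n = 3). *Hk3* went from 1.12% ± 0.14 to 29.2% ± 6.0 and *Hk2* from 2.44% ± 0.34 to 8.89% ± 1.33 (SD, n = 3). The sum over these 4 genes was 56.5 ± 2.41 CPM per kb in Sham and 62.3 ± 7.62 CPM per kb after injury (SD, n = 3), and the libraries of both groups overlapped. Of the injured *VEGFR3 fl/fl* libraries, replicate 1 had the highest *Hk3* share, at 36.2%, against 25.6% and 25.9% in the others. Dividing by transcript length sets part of these figures, since without it *Hk3* made up 23.2% and *Hk2* 12.0% after injury.

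**Figure D2:**
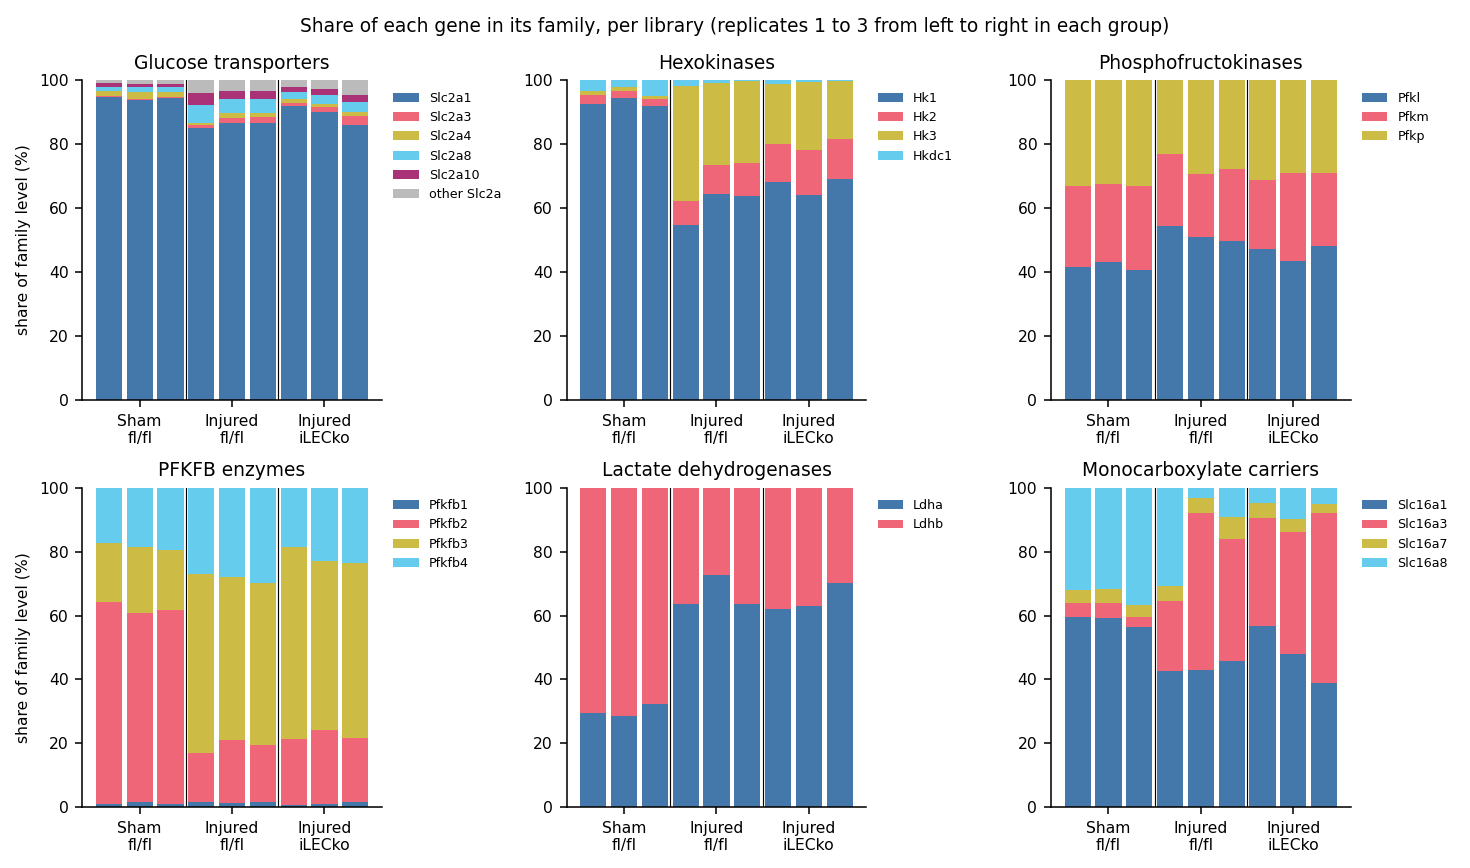
Share of each gene (vertical axis, percent) in the summed level per kilobase of its family, with 1 stacked bar for each of the 9 libraries and 1 panel for each of 6 families. *Hk1* fills 93.0% of the hexokinase bar in Sham and 61.0% after injury, *Ldha* passes *Ldhb*, and *Pfkfb3* passes *Pfkfb2* in every injured library.

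At the phosphofructokinase step, the catalytic subunit and its regulator differed. *Pfkl* (18641, chr10:77986947-78009807), the liver-type subunit, was at 179, 207 and 186 CPM in Sham and at 138, 142 and 125 CPM after injury. The groups did not overlap, but the change was under 1.5-fold (log2 fold change -0.50, SE 0.087, adjusted p = 0.000955). *Pfkm* and *Pfkp*, the other subunit genes, were DEGs with larger falls, at log2 fold changes of -1.04 and -1.10, so that *Pfkl* went from 41.8% ± 1.34 to 51.8% ± 2.49 of the 3 genes per kilobase (SD, n = 3) while their sum fell from 122 ± 6.39 to 69.9 ± 4.04 CPM per kb (SD, n = 3). Which subunit leads depends on the division by length. Without it *Pfkp* led, with 55.5% in Sham and 47.5% after injury, and *Pfkl* went from 30.3% to 39.7%.

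*Pfkfb3* (170768, chr2:11471430-11554071) encodes the PFKFB form with the highest kinase activity, which raises the activator of phosphofructokinase. It was at 19.2, 17.8 and 18.6 CPM in Sham and at 88.7, 87.3 and 97.2 CPM in injured *VEGFR3 fl/fl* libraries. The replicates were close together in both groups, and the log2 fold change was 2.30 (SE 0.083, adjusted p = 8.91e-08). Per kilobase it went from 19.3% ± 1.11 to 52.6% ± 3.04 of the 4 *Pfkfb* genes (SD, n = 3). *Pfkfb2*, the heart-type form, led in Sham with 61.0% ± 2.0 and fell to 17.6% ± 2.25 (SD, n = 3). *Pfkfb4* rose as well, with a log2 fold change of 1.46 (SE 0.15, adjusted p = 3.67e-05), and *Tigar*, whose enzyme breaks the same activator down, fell with -0.70 (SE 0.15, adjusted p = 0.00299).

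The enzymes that yield ATP moved little. *Pgk1* (18655, chrX:106187100-106203699), phosphoglycerate kinase, was at 290, 300.4 and 308 CPM in Sham and at 230.1, 286 and 246 CPM after injury. Its injured libraries were all below the Sham libraries, yet the log2 fold change of -0.24 (95% interval -0.47 to -0.0020, adjusted p = 0.0758) did not pass the test. *Pkm* (18746, chr9:59656576-59679372), pyruvate kinase, was the member with the highest level per kilobase in every group, and its groups overlapped, with means of 1670 ± 100 CPM in Sham and 1501 ± 180 CPM after injury (SD, n = 3). Its log2 fold change was -0.15 (95% interval -0.40 to 0.092, adjusted p = 0.251). These values cover all transcripts of the gene, so the PKM1 and PKM2 forms were not separated. *Pgk1*, *Pkm* and *Ldha* have processed pseudogenes in the mouse genome, and how the authors' counting shared reads with such copies is not given in the sources used here.

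Lactate formation and export showed a change of makeup as well. *Ldha* (16828, chr7:46842274-46855627), the muscle-type subunit of lactate dehydrogenase, was at 270.0, 295 and 313 CPM in Sham and at 435, 475 and 402 CPM after injury. The groups did not overlap, and the log2 fold change of 0.58 (SE 0.10, adjusted p = 0.000892) came to 1.49-fold, just under the fold limit of a DEG. It passed 1.5-fold when Sham replicate 3 (log2 fold change 0.63) or injured *VEGFR3 fl/fl* replicate 3 (0.64) was left out. *Ldhb*, the heart-type subunit, fell from 488 ± 33.9 to 157 ± 26.3 CPM (SD, n = 3; log2 fold change -1.64, SE 0.16, adjusted p = 2.89e-05). *Ldha* therefore went from 30.1% ± 1.89 to 66.7% ± 5.27 of both genes per kilobase (SD, n = 3), with every Sham library between 28.7% and 32.3% and every injured library between 63.6% and 72.8%. The sum of both genes fell from 536 ± 30.8 to 361 ± 14.3 CPM per kb (SD, n = 3).

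*Slc16a3* (80879, chr11:120948484-120959000) encodes MCT4, a carrier that exports lactate. It was at 5.15, 5.42 and 3.66 CPM in Sham and at 22.2, 55.9 and 34.3 CPM in injured *VEGFR3 fl/fl* replicates 1 to 3. All injured libraries were higher, with the widest spread among the 10 genes in this group (coefficient of variation 45.6%) and the lowest value in replicate 1. The log2 fold change was 2.98 (SE 0.42, adjusted p = 0.000260). Its share of 4 monocarboxylate carriers per kilobase went from 4.08% ± 0.97 to 36.4% ± 13.6 (SD, n = 3), whereas *Slc16a1*, which encodes MCT1, went from 58.4% ± 1.66 to 43.7% ± 1.74 (SD, n = 3). *Slc16a8*, which encodes the MCT3 carrier of pigmented epithelium, held 31.8% to 36.8% in Sham and 30.7%, 3.08% and 9.06% in injured replicates 1 to 3, so replicate 1 differed from the other injured libraries in the makeup of this family.

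**Figure D3:**
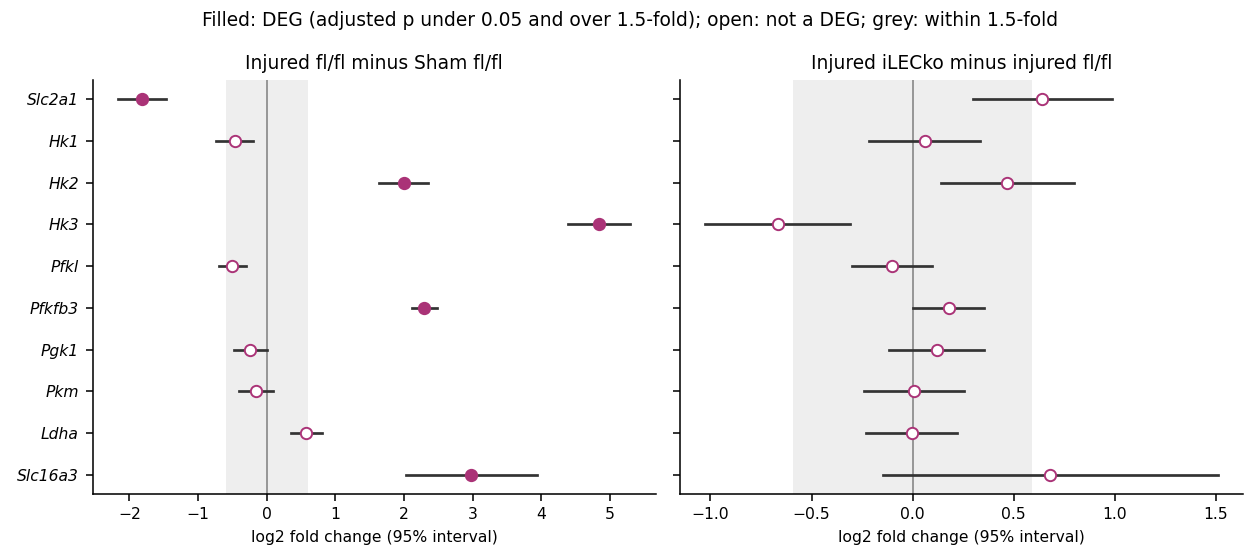
Log2 fold change of the 10 genes (horizontal axis, with 95% intervals from edgeR) after injury on the left and between the injured groups on the right, where filled points are DEGs and the grey band spans changes within 1.5-fold. The 5 filled points on the left are *Slc2a1* at -1.81 and *Hk2*, *Hk3*, *Pfkfb3* and *Slc16a3* at 2.0 to 4.84, and no point on the right is filled.

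The order of the 10 genes by level per kilobase changed with injury. In Sham it ran from *Pkm* (686 CPM per kb) and *Slc2a1* (544) through *Pgk1* (164), *Ldha* (161), *Hk1* (52.5) and *Pfkl* (51.2) to *Pfkfb3* (3.86), *Hk2* (1.38), *Slc16a3* (1.09) and *Hk3* (0.63). Neighbours whose libraries overlapped were *Pgk1* and *Ldha*, *Hk1* and *Pfkl*, and *Hk2* and *Slc16a3*. In injured *VEGFR3 fl/fl* irises *Ldha* (241 CPM per kb) stood second after *Pkm* (617), above *Slc2a1* (155) and *Pgk1* (139), which overlapped. *Hk3* (18.2) moved from the last place to overlap with *Pfkfb3* (19.0), and *Slc16a3* (8.64) and *Hk2* (5.52) overlapped at the end of the order. *Hk1* (38.0) and *Pfkl* (36.2) kept their places and overlapped.

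Among the other genes of the pathway more DEGs fell than rose. In 4 lists of carriers and enzymes that completed the pathway around the 10 genes, 43 of 49 genes could be tested, of which 8 were DEGs with higher levels after injury, where 22.1% of all genes tested were, and 15 were DEGs with lower levels, where 17.5% of all genes were. Over these 43 the log2 fold change had a median of -0.42. Among the other *Slc2a* genes, *Slc2a6* and *Slc2a9* rose with log2 fold changes of 4.05 and 1.79, and *Slc2a4*, the insulin-responsive carrier, and *Slc2a12* fell with -2.07 and -1.74. The level of *Slc2a6* was low, at 0.37 ± 0.23 CPM in Sham and 6.30 ± 0.84 CPM after injury (SD, n = 3). The neuronal-type carrier *Slc2a3* was at 12.0 ± 0.75 CPM in Sham and 16.7 ± 7.49 CPM after injury (SD, n = 3), with an adjusted p of 0.277. Of 15 other glycolytic enzymes tested, *Bpgm* rose with a log2 fold change of 1.18 and 6 fell, namely *Pfkm*, *Pfkp*, *Aldoa* (-0.68), *Aldoc* (-1.29), *Tpi1* (-0.60) and *Ldhb*. *Gapdh*, with 2671 ± 167 CPM in Sham and 2494 ± 173 CPM after injury (SD, n = 3), had a log2 fold change of -0.099 and an adjusted p of 0.405.

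Enzymes that steer pyruvate fell in part. *Pdk1* and *Pdk2*, kinases that switch off pyruvate dehydrogenase, fell with log2 fold changes of -1.42 and -1.69, and *Pdhb*, a subunit of that complex, with -0.59, whereas the phosphatase gene *Pdp1* rose with 1.20. Of the carriers and their partners, *Emb* (1.47) and the mitochondrial pyruvate carrier *Mpc1* (0.65) rose, and *Slc16a1* (-0.62) and *Bsg* (-0.61), whose protein brings MCT1 and MCT4 to the cell surface, fell. In the pentose phosphate pathway 4 of 8 genes were higher and 1 was lower (22.1% and 17.5% of all genes), with *Taldo1* (1.52) and *Pgd* (1.10) as the largest rises and *Tkt* (-0.81) as the fall. In glycogen metabolism 1 of 13 tested genes was higher, *Pgm2* (0.94), and 7 were lower (22.1% and 17.5% of all genes). The largest falls there were those of *Pygm* (-1.87) and *Gyg* (-1.30). In gluconeogenesis *Pcx* (-0.86) was lower (17.5% of all genes) and the other 2 tested genes were not DEGs.

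**Figure D4:**
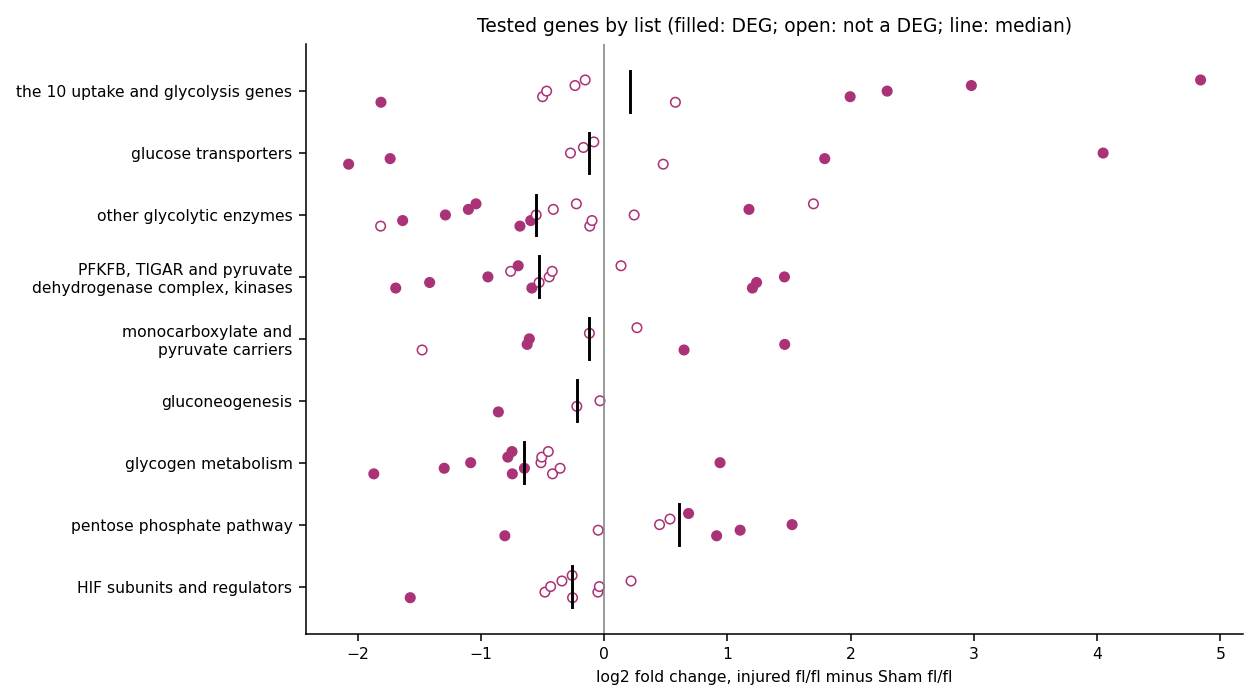
Log2 fold change after injury (horizontal axis) of each tested gene in the 10 genes and in 8 lists of the pathway and its neighbours (vertical axis), with filled points for DEGs, open points for other genes and a line at the median of each list. The medians are 0.21 for the 10 genes, -0.55 for the other glycolytic enzymes, -0.65 for glycogen metabolism and 0.61 for the pentose phosphate pathway.

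Hypoxia-inducible factors are known to raise several of the 10 genes, so their own genes and other targets were listed too. Of 9 genes for the factors and their regulators, 1 was a DEG after injury, compared with 39.7% of all genes. That gene was *Hif3a*, with a log2 fold change of -1.57, and 8 were not DEGs. Of 14 targets outside glycolysis, 4 were higher, near the 22.1% of all genes, and 1 was lower, against 17.5% of all genes. The largest rises were those of *Stc2* (2.12) and *Car9* (1.07), both at low levels in Sham, with means of 0.48 ± 0.30 and 1.42 ± 0.70 CPM (SD, n = 3), and the libraries of both groups overlapped for *Car9*. The fall was that of *Vegfa* (-1.01, from 198 ± 18.0 to 98.0 ± 27.7 CPM, SD, n = 3).

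The second comparison asked what *VEGFR3* deletion in *Prox1*-expressing cells changed in the injured iris, by setting the libraries labelled injured *VEGFR3 iLECko* against injured *VEGFR3 fl/fl*. None of the 10 genes was a DEG by edgeR, compared with 1.04% of all genes tested. An unadjusted p under 0.05 by edgeR was reached by 4 of the 10, compared with 24.5% of all genes. DESeq2 called 2, *Slc2a1* and *Hk3*. Its share of all genes is not given here, and the 1.04% belongs to edgeR, so these 2 cannot be set against it. The injured groups did not overlap for 3 of the 10 genes, compared with 26.7% of all genes, and these were *Slc2a1*, *Hk2* and *Hk3*. The median change was 0.089 on the log2 scale over the 10 genes and -0.0099 over all genes. Both comparisons use the same injured *VEGFR3 fl/fl* libraries, so a high or low value there enters both.

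*Slc2a1* was at 904, 817 and 642 CPM in injured *VEGFR3 iLECko* replicates 1 to 3 and at 416, 544 and 556 CPM in injured *VEGFR3 fl/fl* replicates 1 to 3. All 3 libraries with the Cre label were higher than all without it and lower than every Sham library. The log2 fold change was 0.64 (95% interval 0.30 to 0.98), or 1.56-fold, with an adjusted p of 0.0651 by edgeR, and it lay between 0.50 and 0.77 under the alternatives tried. All 8 pigment cell markers also had log2 fold changes above 0 in this comparison, with a median of 0.32, and 4 of the 8 did not overlap between the injured groups, compared with 26.7% of all genes, but 0 of the 8 were DEGs. The part of pigment cells in the *Slc2a1* values was not tested. *Hk2* was at 43.3, 44.1 and 38.9 CPM against 25.4, 35.5 and 30.3 CPM. Here too the groups did not overlap, with a log2 fold change of 0.47 (95% interval 0.14 to 0.80, adjusted p = 0.107). *Hk3* was at 39.8, 38.6 and 32.1 CPM against 72.1, 57.8 and 45.7 CPM. All its values were lower under the *VEGFR3 iLECko* label, with a log2 fold change of -0.67 (95% interval -1.03 to -0.31, adjusted p = 0.0652).

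*Hk3* passed the test when injured *VEGFR3 fl/fl* replicate 3 was left out (log2 fold change -0.82, adjusted p = 0.0316), and when replicate 1 was left out its log2 fold change was -0.49 (adjusted p = 0.113). The macrophage markers moved in the same direction as *Hk3*, since 7 of 12 were DEGs with lower levels, compared with 1.04% of all genes for DEGs in either direction, and 10 of 12 did not overlap between the injured groups, compared with 26.7% of all genes. All 8 tested neutrophil markers had log2 fold changes above 0 with overlapping groups. The part of these cells in the *Hk3* values was not tested. Replicate 3 is the only injured *VEGFR3 fl/fl* library with Y-linked expression as low as in the *VEGFR3 iLECko* libraries. The Y-linked level and the genotype label are therefore largely confounded between the injured groups, and their parts in these values cannot be told apart. With the Y-linked level as a covariate, the log2 fold change was 0.50 for *Slc2a1* (adjusted p = 0.552) and -0.33 for *Hk3* (adjusted p = 0.623).

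The other 7 genes overlapped between the injured groups. *Slc16a3* had a mean of 37.5 ± 17.1 CPM without Cre and of 60.1 ± 26.5 CPM in the *VEGFR3 iLECko* libraries (SD, n = 3), and its interval was wide (log2 fold change 0.68, 95% interval -0.14 to 1.51, adjusted p = 0.275). Leaving out *VEGFR3 iLECko* replicate 3, whose value was 89.4 CPM, gave 0.28, leaving out injured *VEGFR3 fl/fl* replicate 1 gave 0.42, and leaving out its replicate 2 gave 1.09. *Pfkfb3* was at 91.1 ± 5.31 and 103 ± 8.22 CPM (SD, n = 3; log2 fold change 0.18, 95% interval 0.0045 to 0.35, adjusted p = 0.196). For *Hk1*, *Pfkl*, *Pgk1*, *Pkm* and *Ldha* the log2 fold changes lay between -0.10 and 0.12, and their 95% intervals lay between -0.30 and 0.35, within 1.5-fold in either direction. *Pkm* had 1501 ± 180 and 1508 ± 90.2 CPM, and *Ldha* 437 ± 36.7 and 436 ± 37.0 CPM (SD, n = 3).

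Under the *VEGFR3 iLECko* label, the mean shares of *Ldha*, *Pfkfb3* and the 4 hexokinase genes were closer to injured *VEGFR3 fl/fl* than to Sham. Some other shares were nearer to Sham. In this group *Pfkl* made up 46.4% of the phosphofructokinase genes, against 41.8% in Sham and 51.8% in injured *VEGFR3 fl/fl*. *Pfkfb4* made up 21.8% of the *Pfkfb* genes, against 18.5% and 28.2% in the same order. *Ldha* made up 65.0% ± 4.35 of both lactate dehydrogenase genes per kilobase and *Pfkfb3* 55.7% ± 3.72 of the *Pfkfb* genes (SD, n = 3), and both ranges overlapped those of injured *VEGFR3 fl/fl*. Among the hexokinases, *Hk3* made up 18.0% to 21.3%, below the 25.6% to 36.2% of injured *VEGFR3 fl/fl*, and *Hk2* made up 13.0% ± 1.14, against 8.89% ± 1.33 (SD, n = 3), with no overlap. The sum of the 4 hexokinase genes was 59.1 ± 5.53 CPM per kb (SD, n = 3), within the range of the other injured group. *Slc16a1* was the gene of the 4 pathway lists with the smallest adjusted p between the injured groups, at 45.2 ± 4.16 CPM in *VEGFR3 fl/fl* and 66.8 ± 1.34 CPM in *VEGFR3 iLECko* libraries (SD, n = 3; log2 fold change 0.56, adjusted p = 0.0235), a change under 1.5-fold, and 0 of the 43 genes of those lists were DEGs by edgeR. In the order by level per kilobase, *Slc2a1* (242) overlapped with *Ldha* (240) in this group and stood above *Pgk1* (151).

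For each member, the tested gene outside the 10 with the nearest profile was found as the smallest root mean square difference of centred log2 CPM over the 9 libraries. *Slc2a1* was nearest to *Dkk3* (0.077 log2 units), *Hk1* to *Agpat5* (0.072), *Hk2* to *Scube3* (0.16), *Hk3* to *Fcer1g* (0.15) and *Pfkl* to *Cox4i1* (0.048). *Pfkfb3* was nearest to *Gsr* (0.12), *Pgk1* to *Slc25a37* (0.062), *Pkm* to *Gapdh* (0.054), *Ldha* to *Rhoc* (0.051) and *Slc16a3* to *Col5a3* (0.22). Each distance is the smallest over all tested genes outside the 10, so a small value alone does not link a pair of genes. For scale, the span between the lowest and the highest library was 2.18 log2 units for *Slc2a1* and 4.71 for *Hk3*.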

How the data were processed

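RNA of pooled irises was sequenced as single-end reads. The authors filtered the reads and aligned them with HISAT2 2.0.4 and Bowtie2 2.2.5 to mm10, per the submitters' processing notes, and deposited estimated counts per gene without normalization. The counting program and annotation are not given in the sources used here. A combined table with identical values, group averages included, was not used. Groups came from titles and descriptions, because the genotype tag of 2 *VEGFR3 iLECko* libraries named another VEGFR number.

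Estimated counts were rounded to whole numbers and fitted in R 4.3.3 with edgeR 4.0.16 (filterByExpr, TMM factors 0.90 to 1.09, 9 libraries together, quasi-likelihood test, Benjamini-Hochberg adjustment over 15010 genes). Standard errors came from the F statistic. The study's filter on TPM was not applied. Replicates were separate pools, each made from 3 irises of mice with the same genotype per the study's methods, so p-values measure the spread between pools. Levels per kilobase used the longest GENCODE M21 transcript. DESeq2 1.42.0 served as an alternative. The 10 genes and all lists were chosen with earlier results of these data known. Named beside the 10 genes were genes of the 4 pathway lists, at most 2 higher and 2 lower DEGs of other lists, defining markers, and the nearest profile of each gene. Genotype tags of the libraries without Cre, Sham and injured, read WT. These libraries were taken as *VEGFR3 fl/fl*, as the study describes them. A result on a further gene is not reported here.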

Additional observations from a re-analysis of the deposited data

How the results depend on the processing

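After injury, the direction of all 10 genes was kept under all 17 alternatives. The shares of all genes that were DEGs, given above, belong to edgeR with TMM on all 9 libraries and not to the alternatives. Without the fold limit 8 genes passed (5 higher, 3 lower). With a library left out the number of DEGs was 5 to 6, with scaling by library size alone it was 7 (4 higher, 3 lower, against 4 higher and 1 lower), because *Hk1* (log2 fold change -0.63) and *Pfkl* (-0.67) passed 1.5-fold, and *Hk1* passed it without injured *VEGFR3 fl/fl* replicate 2 (-0.61). That scaling moved the median of all genes after injury from 0.010 to -0.16 and the share of higher DEGs from 55.8% to 44.1%. Over all genes it gave 2783 higher and 3523 lower DEGs, against 3323 and 2630 with TMM. With only the 6 libraries compared, or with a Y-linked covariate, *Ldha* passed as well (0.59 and 0.63), which made 6.

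Between the injured groups, DESeq2 called 2 genes (*Slc2a1*, adjusted p = 0.00114, and *Hk3*, adjusted p = 0.00814), and with a library left out the number was 0 to 1. The log2 fold change changed sign for *Hk1* without *VEGFR3 iLECko* replicate 1 (-0.033) or *VEGFR3 fl/fl* replicate 1 (-0.013), for *Pfkl* with the Y-linked covariate (0.011), for *Pkm* with upper quartile scaling (-0.0055) and with 4 libraries left out in turn (-0.048 to -0.00091, with -0.031 and -0.033 between them), and for *Ldha* with RLE (0.00010), library size (0.058), DESeq2 (9.11e-05), the 6 libraries (0.0062), the Y-linked covariate (0.14), and without *VEGFR3 iLECko* replicate 2 (0.065) or *VEGFR3 fl/fl* replicate 2 (0.060). Over the fits without a library, the log2 fold change reached 0.20 for *Hk1* and 0.11 for *Pkm* at the highest, and -0.061 for *Ldha* at the lowest. The cause was not tested.

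The groups share replicate numbers. Same-numbered libraries had correlations of deviations from -0.35 to 0.21 over 9 pairs, and a library correlated best with its own number in 5 of 18 cases, so the numbers were not treated as pairs. With a replicate block, 5 and 0 genes were DEGs. Of 24 family shares, 17 moved by more than 1 SD without division by length. At these depths *Hk3* in Sham rests on 32 to 41 counts a library.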
